A study of Homo sapiens with 16 samples.

Results

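The comparison described here is the last time point of an induction course: 2 arrays of U937 cells that had been induced to express AML1-ETO for 72 h, set against 2 arrays of control cells taken at 72 h. These are 4 of the 16 arrays of the series, chosen by their titles. Both groups were the same U937 line, a human monocytic leukaemia line, and both carried the AML1-ETO construct under a tetracycline-controlled promoter, so the controls differ from the induced cells in induction and not in the construct. Cells grew in RPMI medium with fetal calf serum, RNA came from a TRIzol extraction, and target was made from an oligo-dT primer and hybridised to Affymetrix U95Av2 arrays. The array carries 12626 probe sets, of which 12559 are not Affymetrix controls, and 7824 of those were bright enough to be tested. The model is 1 cell line, and the labels do not say whether the 2 replicates of a group were separate cultures. The p-values thus reflect only how far these particular samples spread, and that spread may be technical. Because each array measured RNA from a whole culture, fewer cells of a type and less RNA per cell cannot be told apart.

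AML1-ETO arises from the translocation t(8;21) of acute myeloid leukaemia. It keeps the DNA-binding runt domain of RUNX1, which pairs with CBFB and recognises the RUNX motif, and joins it to nearly all of RUNX1T1, a scaffold that recruits corepressors and histone deacetylases. RUNX1 normally acts with PU.1 (SPI1) and the C/EBP factors to switch on genes of granulocytes and monocytes, and the fusion is known for blocking that maturation.

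All arrays of the series had been scaled to 1 common mean intensity. Median intensity was 331.2 and 331.6 in the induced arrays and 236.1 and 287.7 in the controls. Of the tested values, 8.00% and 9.42% of the induced and 13.2% and 9.16% of the control arrays lay at or under the floor of 135.61, below which values were not distinguished. The induced arrays correlated with each other at r = 0.926, the controls at 0.944, and arrays of different groups at 0.770 to 0.803. Of markers of the monocytic lineage, CD4, ITGB2, LYZ, FCER1G and SPI1 were above the floor in both control arrays, as was TYROBP (537 and 351), which was under it in both induced arrays, and CD68 was above it in 1 control array (712 and -384). ITGAM and CSF1R lay under it in all 4 arrays and CD14 read 291.7 and 106.5 in the controls. The summed intensity of 18 T and NK cell markers was 4350.3 and 4953 in controls and 6441 and 6187 in induced arrays, with 9 to 11 of the 18 at or under the floor. Of 10 tested T and NK cell genes 1 was called higher and 2 lower, and none of 5 B cell, 5 red cell and platelet, and 4 epithelial, fibroblast and endothelial genes was called. The 3 called T and NK cell genes did not lie outside all 8 control arrays, and their part in the results below was not tested.

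The induced part of the fusion was read by 1 of the 4 RUNX1T1 probe sets. It gave -399 and -5.1 in the control arrays and 10603 and 8355 in the induced arrays, so both controls lay under the floor and the induced cells were at least 69.4-fold higher (adjusted p = 7.01e-05, limma). None of the other RUNX1T1 probe sets passed the filter. At 72 h one read 351.5 and 131.8 in controls against 155.3 and -52.0 in induced arrays. Another read 35.6 and 19.9 against -23.2 and 100.6, and the last 16.6 and -48.5 against -14.9 and -59.2. CBFB, the partner subunit of the runt domain, read 9681 and 10165 in controls and 4502 and 3872 in induced cells, a log2 difference of -1.25 ± 0.13 (SE; adjusted p = 1.14e-05). Of 4 tested related genes 2 were not called and 2 were lower. The lower ones were CBFA2T3, a family member of RUNX1T1, at least 6.26-fold, and RUNX3, 2.73-fold. The control mean of CBFA2T3 was 355 at 0 h, 382 at 24 h, 741.5 at 48 h and 849 at 72 h.

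At 72 h, 2348 of the 7824 tested probe sets (30%) differed at an adjusted p under 0.05, 1258 higher in induced cells (16.1%) and 1090 lower (13.9%). Counted as genes with 1 probe set each, 1753 of 5589 were called (31.4%), 947 higher (16.9%) and 806 lower (14.4%). These shares are the background for every list below. In all 2348 calls the 2 arrays of a group lay on the same side of both arrays of the other group. Without a test, 38.8% of all tested probe sets had both induced arrays above both controls and 26.7% below. The call with a difference of at least 2-fold numbered 967 higher and 814 lower, and at least 4-fold 333 and 310. In 156 of the higher calls both controls were at the floor and both induced arrays above it, and in 110 of the lower calls the reverse held.

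Both induced arrays lay above all 8 control arrays of the series in 1104 of the 1258 higher calls (87.8%), and below all 8 in 993 of the 1090 lower calls (91.1%). Over all tested probe sets the share outside all 8 controls in either direction was 39.2%. With the 0 h controls in place of those at 72 h, 887 of the higher and 922 of the lower calls were called the same way, 26 turned sign and 0 were called the opposite way. The balance of directions depended on the scaling. The median tested probe set was shifted by 0.18 (log2) in the deposited values, by 0.05 after quantile normalization and by -0.13 after median centring. The share of calls that were higher was 53.6%, 48.4% and 34.5% in the same order. Without the first control array at 72 h the number of higher calls fell from 1258 to 730.

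**Figure D1:**
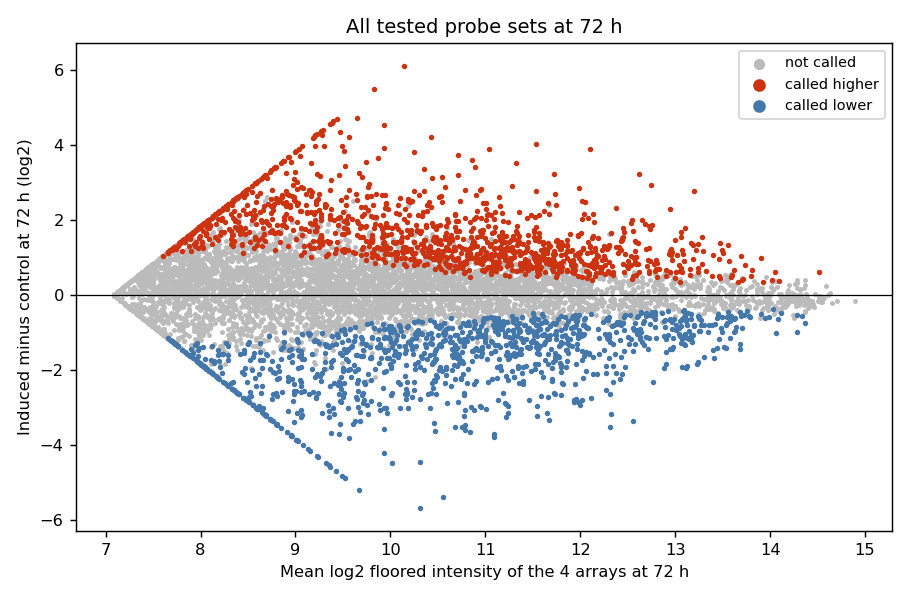
Difference between induced and control cells at 72 h (vertical axis, log2) against the mean log2 floored intensity of the 4 arrays (horizontal axis) for all 7824 tested probe sets. The 1258 higher calls are red, the 1090 lower calls blue and the others grey. The straight edges on the left are probe sets with 1 whole group at the floor.

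Most of what differed at 72 h had the same sign at 48 h and little size at 24 h. Probe sets called higher at 72 h had a median log2 difference of 1.45 at 72 h, 0.95 at 48 h and 0.15 at 24 h. For those called lower the medians were -1.45, -0.81 and -0.05. The sign at 48 h was the same for 1215 of 1258 higher and 1014 of 1090 lower calls. Of further tested probe sets for genes whose main probe set was called, 441 of 486 had the same sign (90.7%), 243 were called the same way and 1 the opposite way.

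Among the largest measured rises was TGFBR2, the type II receptor for TGF-beta. It read 382 and 777 in the control arrays and 8273 and 8014 in the induced arrays, a log2 difference of 3.90 ± 0.39 (SE) and 14.9-fold (adjusted p = 7.76e-06, limma). QPRT, an enzyme of NAD synthesis, read 496 and 569 against 5910.5 and 7093 (12.2-fold). GCH1, the first enzyme of tetrahydrobiopterin synthesis, read 696 and 492 against 6663 and 5764 (10.6-fold). The largest changes were picked among genes without overlap of the groups, and in these 3 the lowest induced array lay far above the highest control array. PRAME, a tumour antigen found in many myeloid leukaemias, went from 182 and 352 to 4039 and 3584 (15.1-fold). SECISBP2L, a relative of a selenoprotein synthesis factor, went from 165 and 378 to 2979.5 and 2872 (11.7-fold). ECM1, an extracellular matrix protein, had induced arrays of 6101 and 5792 against controls of 218 and 468, but its 48 h controls read -110.5 and 1221 and its 0 h controls -252 and 1312, its standard error was large (4.22 ± 1.21), and its call was lost under 6 alternatives. CD53, a leukocyte tetraspanin, and PPP2R5B, a regulatory subunit of the phosphatase PP2A, had both controls at the floor. CD53 read 3287 and 2399.8 in the induced arrays (at least 20.7-fold higher) and PPP2R5B 2866 and 2338 (at least 19.1-fold higher).

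Among falls, DDIT4, an inhibitor of mTOR signalling, read 4613 and 5209.7 in controls and 347 and 139.6 in induced cells (-4.48 ± 0.41, log2 with SE; adjusted p = 4.34e-06). ZFP36L2, an RNA-binding protein that promotes decay of AU-rich messages, read 18732 and 15722 against 1711 and 1312 (11.5-fold lower). LSP1, an actin-binding protein of leukocytes, read 4742 and 5208 against 474 and 341 (12.4-fold lower). In each of these 3 genes, picked by the same rule, both induced arrays lay far below both control arrays. In another group both induced arrays were at or under the floor. They include PSMG1, a proteasome assembly chaperone, with controls of 2239 and 2381 and a log2 difference of -4.09. SCD, which makes monounsaturated fatty acids, had controls of 2086 and 2759 (at least 17.7-fold lower). Its control means at earlier times were lower, 1196 at 0 h, 1348 at 24 h and 1195 at 48 h. IL17RA, a receptor for interleukin 17, had controls of 2119 and 1913 (at least 14.8-fold lower). PLXND1, a semaphorin receptor, had controls of 3814 and 2604 (at least 23.2-fold lower), with a large standard error (-4.54 ± 1.01). Its induced arrays differed at earlier times, 2557 and 161 at 24 h and 1089 and 6.0 at 48 h. MFAP4, a matrix glycoprotein, had controls of 2172 and 3190.4 (at least 19.4-fold lower). The control arrays of MFAP4 were themselves uneven over time and read 284 and 647 at 24 h and 522 and 2020.4 at 48 h.

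**Figure D2:**
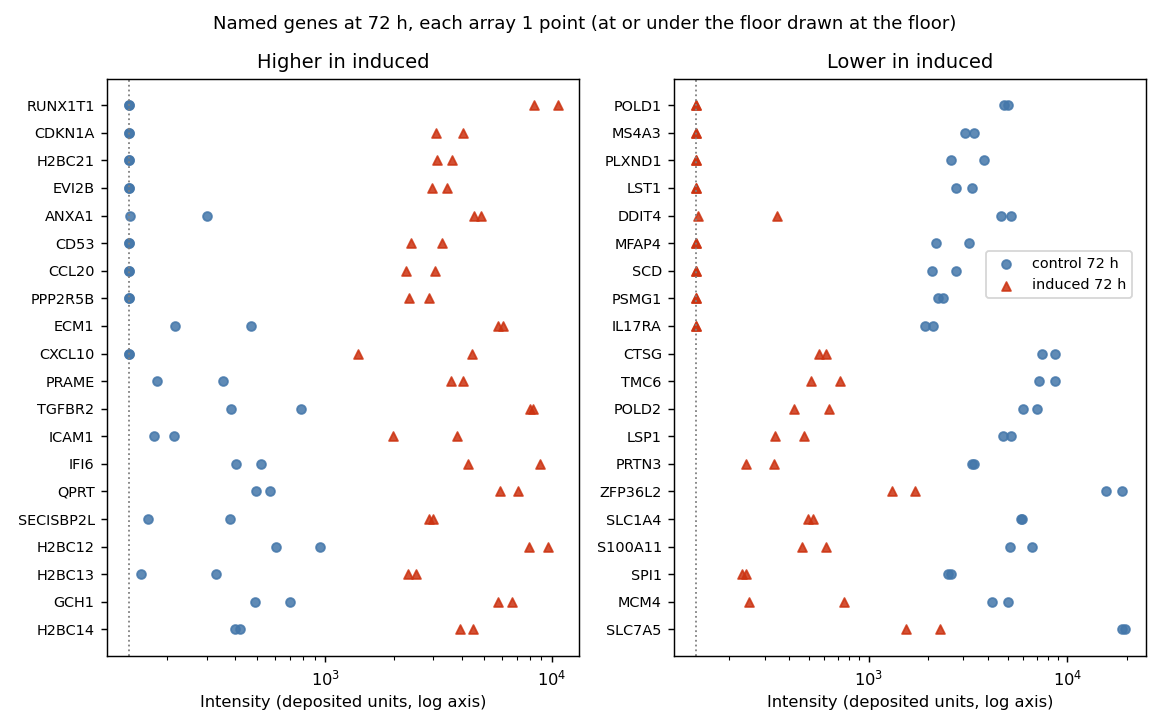
Intensity (log axis, deposited units) of each array at 72 h for the named genes that rose (left) and fell (right), blue circles for the 2 control arrays and red triangles for the 2 induced arrays. Values at or under the floor of 135.61 (dotted line) are drawn at it. The genes shown were chosen among those in which the 2 groups lie apart.

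The factors that direct granulocyte and monocyte development were lower or not called. Of 10 tested factors of this kind, 5 fell and 0 rose. SPI1 (PU.1), the master factor of the lineage, read 2496 and 2596 in the control arrays and 231 and 243 in the induced arrays (-3.42 ± 0.35, log2 with SE; adjusted p = 1.02e-05). CEBPA, which drives granulocyte commitment, read 12841 and 12491 against 2418 and 1731 (6.19-fold lower). CEBPB, a factor of monocyte maturation and of stress responses, read 7241 and 7803 against 3003 and 1733 (3.3-fold lower). VDR, the vitamin D receptor that can push U937 cells toward monocytes, read 1532 and 826 against 183 and 152 (6.76-fold lower). The replicates of SPI1 lay close together in both groups, those of VDR less so in the controls. As in every call at 72 h, the groups did not overlap in the 4 genes.

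IRF8, a factor of the monocyte lineage, had the largest fall of the list, at least 51.4-fold. Its promoter holds a match to the RUNX motif TGTGGT, and it is shown here because the fusion keeps the domain that reads this motif. The 250 bases before the start are given 5′ to 3′ on the plus strand at chr16:85902580-85902829 (GRCh38.p14, from RefSeq), with the match in capitals:

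IRF8: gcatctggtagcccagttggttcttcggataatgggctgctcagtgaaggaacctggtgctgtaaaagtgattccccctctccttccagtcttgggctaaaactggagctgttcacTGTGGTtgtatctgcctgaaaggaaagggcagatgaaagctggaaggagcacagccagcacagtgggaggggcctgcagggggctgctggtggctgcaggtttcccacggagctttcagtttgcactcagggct

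Promoters were matched by gene ID for 4584 tested genes, each taken from 250 bases before to 50 bases after the start and read on both strands. TGTGGT was found in 9.2% of 674 promoters of genes called lower, 8.24% of 801 promoters of genes called higher, 10.1% of all 4584, and 13.1% of the 27305 promoters in the table. A match of letters is not evidence of binding.

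Of 12 tested factors of earlier progenitors 4 were lower (33.3%, against 14.4% of all genes) and 2 higher (16.7% against 16.9%). LYL1, a helix-loop-helix factor of progenitors, read 9527 and 9451 against 1257 and 934 (8.76-fold lower), and MYB, needed for progenitor growth, 6596 and 8261 against 2176 and 2632 (3.08-fold lower). Of 7 further MYB probe sets 5 were called lower, and the other two gave -0.49 and -0.11 (adjusted p = 0.586 and 0.877). ID2 and ID1, which block helix-loop-helix factors, fell at least 8.26-fold and 2.82-fold. LMO2, the bridging protein of the progenitor complex, instead rose from 2096 and 2406 to 6640.1 and 5747 (2.75-fold). MEIS1, a homeobox partner of HOXA proteins, was called higher but lost the call under 5 alternatives.

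Products of the primary granules, which U937 cells make as promonocytes do, fell in 8 of 12 tested genes and rose in 0. CTSG, the protease cathepsin G, read 7436 and 8669 in controls and 614 and 565 in induced cells (-3.77 ± 0.23, log2 with SE; adjusted p = 2.42e-07). PRTN3, proteinase 3, read 3399.9 and 3323 against 334 and 242 (11.8-fold lower). CST7, an inhibitor of the enzymes that activate these proteases, read 11664 and 9157 against 1412 and 1629 (6.81-fold lower). AZU1 and ELANE, which lie beside PRTN3 in the genome and are made at the same stage, fell less, 3.6-fold and 2.53-fold.

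Of 33 tested surface and effector genes of mature phagocytes 5 were higher (15.2%, against 16.9% of all genes) and 9 lower (27.3% against 14.4%). ITGB2, the common chain of the leukocyte integrins, read 10174 and 11754 in controls and 1920.3 and 1281 in induced cells (6.97-fold lower). CXCR4, the receptor that holds cells in the marrow, read 5513 and 6221 against 719 and 724 (8.12-fold lower). ITGAX, an alpha chain that pairs with ITGB2, went the other way, from 20.1 and 106 in controls to 1567 and 1125 (at least 9.79-fold higher). LST1, a leukocyte membrane protein, had both induced arrays under the floor (at least 22.3-fold lower). GRN, a secreted growth regulator processed in lysosomes, rose 4.96-fold, and CSF2RB, the shared receptor chain for GM-CSF and interleukin 3, rose 3.26-fold. NCF4, a subunit of the phagocyte NADPH oxidase, fell 2.65-fold, and CYBA, its membrane subunit, gave -0.42 (log2; adjusted p = 0.286). Of 51 adhesion and cytoskeletal genes 9 were higher (17.6%, against 16.9% of all genes) and 12 lower (23.5% against 14.4%), and after median centring 5 and 11. SELPLG, the selectin ligand of leukocytes, fell from 2009.6 and 1914 to -189.9 and 54.6 (at least 14.5-fold). JUP, a junction protein of the catenin family, rose from 960.2 and 1270.0 to 11228 and 9618 (9.41-fold), PECAM1 rose 6.38-fold and the integrin chain ITGB1 3.42-fold. The actin regulators CAPG and ACTN1 fell 6.93-fold and 3.73-fold.

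The machinery of DNA replication was lower in every functional class. Of 42 tested genes 34 fell (81.0%) and 1 rose, with a median log2 difference of -1.64, against a median of 0.19 over all tested genes. Origin licensing, in which CDC6 and CDT1 load the MCM helicase, had 9 of 12 lower. CDC6 read 1355 and 1618 in control arrays and 16.2 and -21.8 in induced arrays, which were under the floor (at least 10.9-fold lower; adjusted p = 2.78e-06). The other tested CDC6 probe set gave -0.13 (adjusted p = 0.902). CDT1 read 6179.8 and 6883 against 1040.3 and 722 (7.53-fold lower). Its control means varied over time, 5624 at 0 h, 3114 at 24 h, 3722 at 48 h and 6531 at 72 h. MCM7, a helicase subunit, read 7529 and 8599.5 against 1601 and 1587 (-2.34 ± 0.17, log2 with SE). All 4 tested genes of helicase activation fell, CDC45 at least 8.85-fold and GINS1 4.32-fold. Of the polymerase genes 10 of 11 fell. POLD2, the second subunit of polymerase delta, read 5975 and 7005 against 636 and 424 (12.5-fold lower), and PRIM1, the primase, 3156 and 3725 against 803 and 572 (5.06-fold lower). Of the clamp and its loader 5 of 6 fell, PCNA from 6936 and 6588 to 2114 and 1639 (3.63-fold). FEN1, which trims Okazaki fragments, fell 5.16-fold. The 1 gene that rose was TOP1, a topoisomerase that also serves transcription, from 4245 and 5182 to 8118 and 8544, its call was lost under 3 alternatives, and its other tested probe set gave 0.56 (adjusted p = 0.41). The count of lower genes ranged from 28 to 37 over the alternatives.

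Replication genes are textbook targets of E2F factors, so the letters of the E2F motif were looked for in their promoters. TTTCCCGC or TTTGGCGC, on either strand, was found in 36.1% of 36 promoters of the replication list, 3.66% of all 4584 and 2.31% of the 27305 in the table. In genes called higher the share was 3.0% and in genes called lower 5.19%. CDT1 is shown because it was among the larger falls of the licensing step and holds a match before the start (chr16:88803539-88803788, plus strand, GRCh38.p14), and its match is in capitals:

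CDT1: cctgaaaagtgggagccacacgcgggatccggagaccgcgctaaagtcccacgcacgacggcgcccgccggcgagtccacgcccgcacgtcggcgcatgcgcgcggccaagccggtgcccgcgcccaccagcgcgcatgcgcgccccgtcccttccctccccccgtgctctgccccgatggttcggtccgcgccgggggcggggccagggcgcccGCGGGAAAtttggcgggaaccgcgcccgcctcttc

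Enzymes that supply the building blocks fell with it. Of 25 tested genes of nucleotide synthesis 20 were lower (80.0%) and 0 higher, with a median of -1.42. All 13 purine genes fell. ATIC, which completes the purine ring, read 5444 and 6458 in controls and 1040.0 and 696 in induced cells (6.97-fold lower; adjusted p = 4.62e-07). IMPDH2, the rate-limiting enzyme of guanine nucleotide synthesis, read 21764 and 17481 against 7182 and 5111 (3.22-fold lower). Of 8 deoxynucleotide genes 5 fell, TYMS, which makes thymidylate, from 15087 and 13605 to 6126 and 5841 (2.4-fold), RRM1, a ribonucleotide reductase subunit, 2.7-fold, and TK1, thymidine kinase, 2.93-fold. In TYMS the 2 arrays of a group differed by far less than the groups did.

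Mitotic genes fell too, by less. Of 48 tested genes 28 were lower (58.3%) and 0 higher, with a median of -0.86. AURKB, a kinase of chromosome segregation, read 6446 and 6891 in controls and 1765 and 1218 in induced cells (-2.18 ± 0.18, log2 with SE; adjusted p = 1.78e-06). CCNB2, a B-type cyclin, read 6179 and 6172 against 2094 and 2382 (2.77-fold lower). CDC20, an activator of the anaphase-promoting complex, read 8766 and 9746 against 3651 and 3781 (2.49-fold lower). KIF2C, a kinesin that depolymerises microtubules, read 4226 and 4486 against 1595 and 1583 (2.74-fold lower). The 2 induced arrays of KIF2C and CDC20 nearly coincided. Kinases and checkpoint genes were called in 11 of 14 and cyclins and CDK1 regulators in 10 of 14, but spindle and kinetochore genes in 4 of 12. LMNB1, a nuclear lamina protein, had the largest fall, 7.78-fold. Its replicates were uneven, with a control mean of 8606 (SD 3073) and an induced mean of 1097 (SD 342) at 72 h. At 48 h its induced mean was 7308 (SD 4150). The number lower was 28 in the deposited values, between 21 and 26 when 1 of the 4 arrays was left out, and 17 to 34 over all alternatives.

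Many mitotic promoters carry the CHR element with CCAAT boxes before it. TTTGAA was found in 24 of 40 promoters of the mitosis list and 10.0% of all 4584 (15.4% of the table), and CCAAT in 75.0% against 36.9% (35.7% of the table). TTTGAA was found in 12.2% of promoters of genes called lower and 8.11% of those called higher. CCNB2 is shown as a gene whose difference also grew between 48 and 72 h (chr15:59104896-59105145, plus strand, GRCh38.p14), with the TTTGAA match in capitals:

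CCNB2: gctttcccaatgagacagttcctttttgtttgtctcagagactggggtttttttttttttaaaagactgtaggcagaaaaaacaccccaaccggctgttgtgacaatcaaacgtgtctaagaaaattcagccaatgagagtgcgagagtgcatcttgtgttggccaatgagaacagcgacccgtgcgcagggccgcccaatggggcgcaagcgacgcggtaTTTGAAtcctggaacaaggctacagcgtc

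Between 48 and 72 h the effect of induction itself changed beyond the test's threshold in few genes, and which direction led depended on the processing. The difference between the 72 h effect and the 48 h effect was called in 38 of 7824 probe sets (0.486%), 7 higher (0.0895%) and 31 lower (0.396%). At an unadjusted p under 0.05 there were 765. As genes these were 28 of 5589 (0.501%), 3 of them higher (0.0537%) and 25 lower (0.447%), and of the 25 the replication list held 6 and the mitosis list 7. The median of the mitosis list was 0.28 at 24 h, 0.19 at 48 h and -0.86 at 72 h, that of the replication list 0.05, -0.61 and -1.64. AURKB illustrates the step: its induced arrays read 4566 and 5377 at 48 h against controls of 6381 and 5611, and the change of its effect by 72 h was -1.91 ± 0.25 (log2 with SE; adjusted p = 0.00788). KIF2C read 4679 and 4918 in induced cells at 48 h against 4185 and 3639, a 48 h effect of 0.30, and changed by -1.75 ± 0.20 (adjusted p = 0.00288). PLK1, a mitotic kinase, was called higher at 48 h (0.55, adjusted p = 0.00993) and lower at 72 h (-0.67, adjusted p = 0.00174), a change of -1.22 ± 0.19 (adjusted p = 0.0133). The kinetochore gene NDC80 and the cytidine deaminase gene APOBEC3B were also called higher at 48 h and lower at 72 h. The controls of APOBEC3B moved too, with means of 925 at 24 h, 1506 at 48 h and 1841 at 72 h, and its induced mean of 911 at 72 h was not outside all 8 control arrays. In the replication list RNASEH2A, a subunit of the enzyme that removes RNA from DNA, gave -0.04 at 48 h (log2; adjusted p = 0.959) and -2.60 at 72 h (change -2.56 ± 0.45, adjusted p = 0.031).

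The calls of this difference rest on few arrays. Of the 28 genes, 2 kept the call after median centring, 2 with only the 8 arrays of both times in the fit, and 28 after quantile normalization. Leaving out 1 control array left 2 and 4 of the 28 called at 48 h and 3 and 6 at 72 h. Leaving out 1 induced array left 8 and 11 at 48 h and 13 and 25 at 72 h. The number of lower probe sets went from 31 to 3 and 4 without a control array at 48 h, to 4 and 10 without one at 72 h, to 9 and 13 without an induced array at 48 h, and to 25 and 69 without one at 72 h. The 7 higher and 31 lower became 20 and 13 without the mean-variance trend, 43 and 44 with no filter, and 50 and 70 with the floor at the 50th percentile. No gene turned sign under any alternative.

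**Figure D3:**
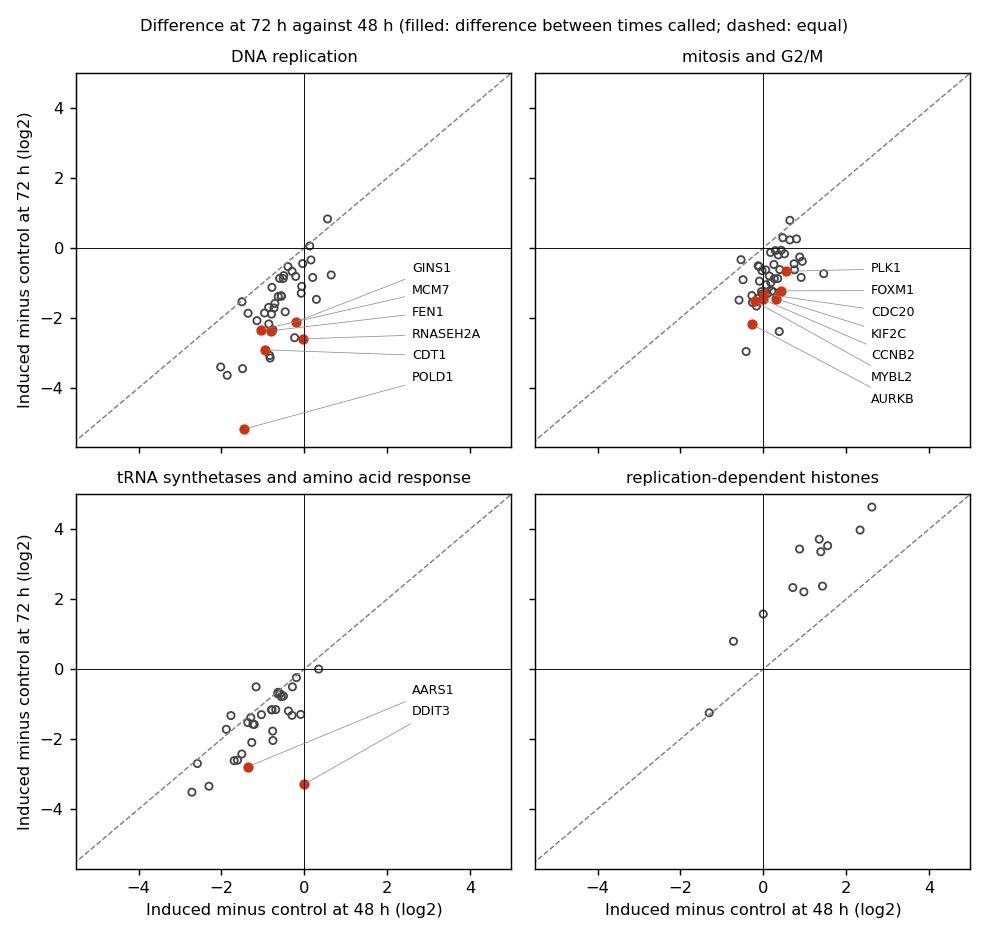
Log2 difference between induced and control cells at 72 h (vertical) against 48 h (horizontal) for 4 gene lists, 1 point per gene, with equality dashed. Filled points are genes whose difference between the 2 times was called, 6 in replication, 7 in mitosis, 2 in the amino acid list and 0 in the histone list. The replication list has a median of -0.61 at 48 h and -1.64 at 72 h, the mitosis list 0.19 and -0.86.

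Of 21 tested regulators of G1, 4 were higher and 4 lower (19.0% each), near the shares over all genes of 16.9% and 14.4%. Of 5 tested CDK inhibitors 3 rose and 0 fell. CDKN1B (p27) read 884 and 1181 in controls and 5040.0 and 3942 in induced cells (4.36-fold higher; adjusted p = 4.26e-05), and CDKN1A (p21) was at least 26.1-fold higher. CDK4, a G1 kinase, fell from 7591 and 9226 to 4244 and 4520.1 (1.91-fold). RB1, the retinoblastoma protein that restrains E2F factors, rose from 1589 and 1957 to 4544 and 5279 (2.78-fold). That call was lost under 1 alternative, and none of 3 further RB1 probe sets was called (1.04, 1.29 and 0.04, adjusted p = 0.154, 0.286 and 0.983).

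Genes of the replication-dependent histones rose while the replication genes fell. Of 12 tested, 10 were higher (83.3%) and 0 lower, with a median of 2.86, and all 8 H2B genes were among them. H2BC12 read 948 and 605 in controls and 9622 and 7898 in induced cells (3.52 ± 0.34, log2 with SE; adjusted p = 6.41e-06). H2BC14 read 422 and 397 against 4465 and 3921 (10.2-fold higher), and H2BC6, at the floor in both controls, 2687 and 1687 (at least 15.7-fold higher). H2AC6 rose at least 5.18-fold. The median of the list was -0.08 at 24 h and 1.17 at 48 h. H2B genes are nearly identical in sequence, so probe sets of different members may share signal and cannot be counted as 8 separate measurements. The target was primed with oligo-dT, which copies messages with a poly(A) tail, and the normal messages of these genes end in a stem-loop in place of the tail. Whether level or tail differed was not tested.

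All 12 histone promoters held CCAAT, against 36.9% of all 4584. H2BC12 is shown for its repeated boxes (chr6:27146859-27147108, minus strand, GRCh38.p14), with CCAAT on either strand in capitals:

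H2BC12: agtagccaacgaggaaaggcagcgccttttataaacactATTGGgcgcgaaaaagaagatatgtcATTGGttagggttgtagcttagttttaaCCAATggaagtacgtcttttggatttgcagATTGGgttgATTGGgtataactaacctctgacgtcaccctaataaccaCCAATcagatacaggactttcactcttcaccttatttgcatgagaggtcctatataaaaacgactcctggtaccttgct

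The list of tRNA synthetases, amino acid supply and stress factors was lower in nearly every tested case. Of 33 genes 30 fell (90.9%) and 0 rose, with a median of -1.33. All 6 stress factors among them fell, and of 13 genes of amino acid synthesis and transport 12 fell. SLC7A5, which imports large neutral amino acids, read 18905 and 19425 in controls and 2293 and 1549 in induced cells (-3.35 ± 0.19, log2 with SE; adjusted p = 1.71e-07). SLC1A4, a transporter of serine and alanine, read 5811 and 5881 against 494 and 528 (11.4-fold lower). ASNS, asparagine synthetase, read 5221 and 6289.5 against 962 and 926 (6.07-fold lower). PHGDH, the first enzyme of serine synthesis, fell 3.41-fold. Of 14 tRNA synthetases 12 fell, AARS1 from 10276 and 10248 to 1331 and 1658 (6.91-fold) and IARS1 from 8953 and 10290.0 to 2153 and 2338 (4.28-fold). As in every call at 72 h, the groups did not overlap in these genes.

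All 6 tested stress factors of the list were called lower. ATF4, the main factor of the amino acid response, lost the call under 8 alternatives, among them leaving out any 1 of the 4 arrays, and ATF5 lost it under 3. DDIT3 (CHOP), a factor induced by amino acid and ER stress, followed another course. Its 72 h controls read 1627 and 1078 and its induced arrays -733 and -245 (at least 9.77-fold lower). Yet its controls read -638 and -423 at 24 h and -108 and -439 at 48 h, under the floor, and 967 and 565 at 0 h. The induced arrays of DDIT3 were under the floor at all 4 times, so its difference at 72 h came with a rise in the control arrays. Of the 30 calls of the list, 29 had both induced arrays outside all 8 controls, DDIT3 being the exception.

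MYC, which drives ribosome production and growth, read 11410.0 and 9752 in control arrays and 1288 and 1642 in induced arrays (-2.86 ± 0.30, log2 with SE; adjusted p = 1.14e-05). Of 16 tested nucleolar and RNA polymerase I factors 12 fell and 0 rose. FBL, the nucleolar methylase fibrillarin, read 18086 and 16767 against 4817 and 4230.1 (3.86-fold lower), and NOLC1, a nucleolar phosphoprotein, 4345 and 4877 against 1391 and 944 (4.02-fold lower). At 48 h the log2 difference was -1.08 for FBL and -1.58 for NOLC1, against -1.95 and -2.01 at 72 h. The median of the MYC and ribosome biogenesis list was -1.18 at both times. Of 41 genes of the ribosome itself 5 were lower (12.2%), near the background of 14.4%, and 4 of those 5 calls were not outside all 8 controls.

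Against these falls, inflammatory genes rose. Of 28 tested genes of the NF-kB pathway and its cytokines 15 were higher and 0 lower, with a median of 1.07. RELB, a subunit of the noncanonical NF-kB pathway, read 428 and 713 in controls and 5614 and 4669 in induced cells (3.21 ± 0.29, log2 with SE; adjusted p = 3.84e-06). NFKB2, its partner, read 147 and 258 against 1393 and 1366 (7.1-fold higher), with 2 of its 3 further probe sets called higher and 1 at 0.22 (adjusted p = 0.758). TNFAIP3, a feedback inhibitor of the pathway, read 505 and 496 against 3340.2 and 2461 (5.73-fold higher). Of 21 cytokine, chemokine and adhesion genes on the array 15 were tested, and 8 of these rose. CCL5, a chemokine for T cells and monocytes, read 3168 and 4101 against 23804 and 25219 (6.8-fold higher). CXCL8, the neutrophil chemokine interleukin 8, read 162 and 107 against 1708 and 3216 (at least 15.8-fold higher). ICAM1, an adhesion ligand for the ITGB2 integrins, read 214 and 176 against 3808 and 1991 (14.2-fold higher). CCL20, a chemokine for CCR6-bearing cells, was a late riser: its induced arrays read 201 and 238 at 48 h and 3061 and 2273 at 72 h, with controls under the floor at both times. The 2 induced arrays of ICAM1, CXCL8 and CXCL10 lay apart from each other, yet each was above both controls. After median centring the list had 11 higher and 1 lower. Only probe sets above 292.74 on at least 2 of 16 arrays were tested. The highest of the 8 control arrays read 257.5 for NFKB2, 214 for ICAM1, 252.4 for CCL20 and 72.1 for CXCL10. These genes thus passed the filter through induced arrays alone. Their rises were favoured by that choice, and the share of tested genes that rose is to be read with this limit.

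Interferon-response genes leaned higher, with a median of 0.97. Of 35 tested, 17 were higher (48.6%, against 16.9% of all genes) and 5 lower (14.3% against 14.4%). IFI16, a DNA sensor, read 422 and 598 in controls and 4950.3 and 3949 in induced cells (8.8-fold higher; adjusted p = 6.03e-05). IFIT3 and OASL, antiviral proteins, rose 6.76-fold and at least 11.4-fold. ISG15, a ubiquitin-like modifier, read 1806 and 1768 against 13454 and 7425 (5.59-fold higher), and IFI6 519.8 and 404 against 8842 and 4264 (13.4-fold higher). In ISG15 and IFI6 the first induced array was well above the second, and both were above the controls. Genes that fell included IFNGR2, a chain of the interferon gamma receptor, from 3355 and 2307 to 396 and 301 (8.05-fold), and IRF3, a factor that starts the interferon response, from 1464 and 2093 to 208 and 379.6 (6.23-fold). After median centring 11 were higher and 6 lower. Of the peptide-loading genes of MHC class I, TAP1 rose 4.52-fold and TAPBP 2.6-fold, and of 12 antigen presentation genes 3 were higher and 0 lower.

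Of 29 tested genes of cell death 7 were higher (24.1%, against 16.9% of all genes) and 6 lower (20.7% against 14.4%). After median centring 3 were higher and 7 lower. MCL1, which protects myeloid cells, rose from 3276 and 3929.8 to 12838 and 12784 (3.57-fold). BCL2, another protector, fell from 2287 and 3451 to 298 and 414 (8.00-fold), but none of its other 3 tested probe sets was called. They gave -0.64, -0.32 and 0.10 (adjusted p = 0.5, 0.789 and 0.841). BID, which links death receptors to mitochondria, fell at least 9.21-fold, and PMAIP1 (NOXA), a p53 target that counters MCL1, rose at least 5.59-fold. CASP8, an initiator caspase, rose 3.09-fold, but its further probe sets gave 1.23 and 1.07 (adjusted p = 0.104 and 0.0915). The TNF receptor TNFRSF1B fell from 2738 and 3032 to 585 and 367 (6.22-fold).

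The remaining lists held calls in both directions, to be read beside 16.9% higher and 14.4% lower over all genes. Of 41 lysosome genes 12 were higher (29.3%) and 2 lower, and 6 of 14 membrane and proton pump genes rose, among them ATP6V1B2 from 2941 and 3786 to 10801 and 10881 (3.25-fold) and ATP6V1E1 (2.54-fold). The lysosome median of 0.26 turned to -0.09 after median centring, with 7 higher and 5 lower, and the cholesterol, adhesion and chromatin medians (0.26, 0.10 and 0.05) turned below 0 too. CTSA, a protective carboxypeptidase, had controls of 970.5 and 1212 and induced arrays of 4136 and 4682. Of 31 proteasome genes 1 was higher and 1 lower (3.23% each), and of 46 oxidative phosphorylation genes 1 (2.17%) and 9 (19.6%). Of 22 glycolysis genes 3 were higher (13.6%) and 5 lower (22.7%), and of 15 cholesterol genes 1 (6.67%) and 2 (13.3%). Of 25 chromatin and corepressor genes 7 were higher (28.0%) and 3 lower (12.0%). After median centring the chromatin list had 1 higher and 4 lower and the cholesterol list 0 and 4. EP300, a histone acetyltransferase that is a RUNX1 coactivator, rose from 359.7 and 289 to 1795 and 1619.8 (5.29-fold). Of 29 chaperone genes 2 were higher (6.9%) and 12 lower (41.4%). TRAP1, the mitochondrial HSP90, fell from 8281 and 8364 to 1368 and 1160.2 (6.61-fold).

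**Figure D4:**
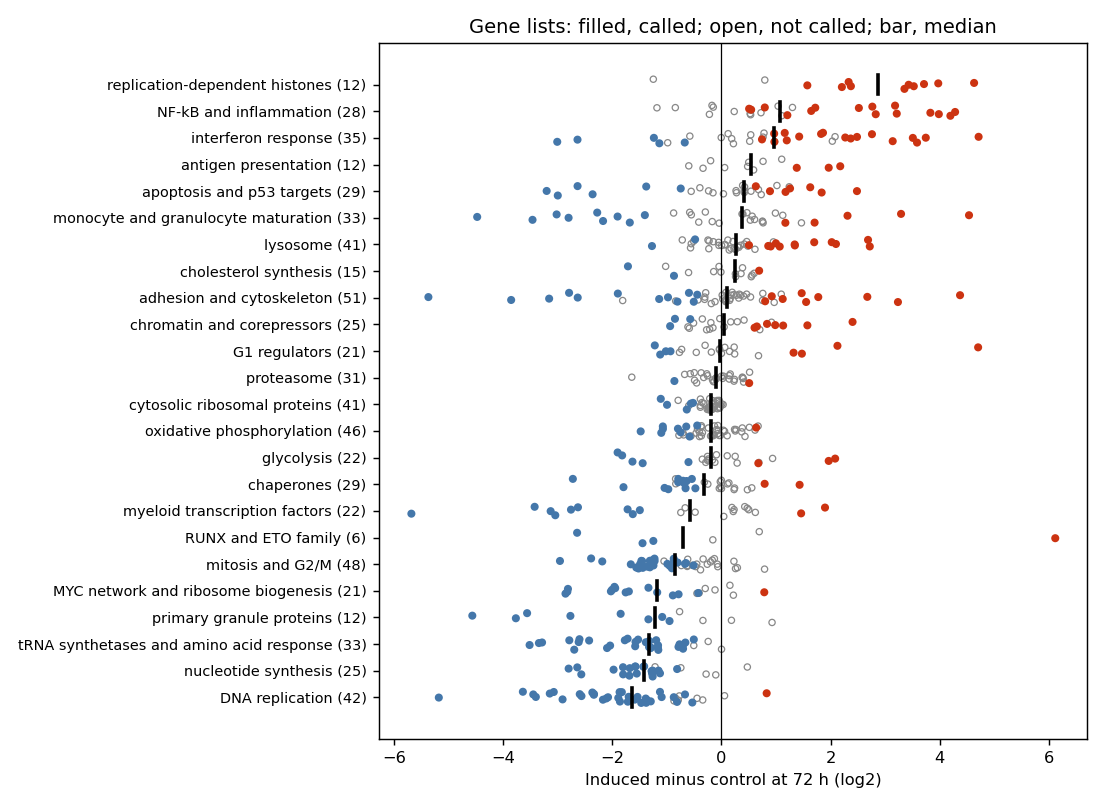
Log2 difference between induced and control cells at 72 h for each tested gene of 24 lists (number of genes in brackets), ordered by median (black bar). Filled points were called (red higher, blue lower) and open points were not. The median is lowest in DNA replication (-1.64) and highest in the histone list (2.86).

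**Figure D5:**
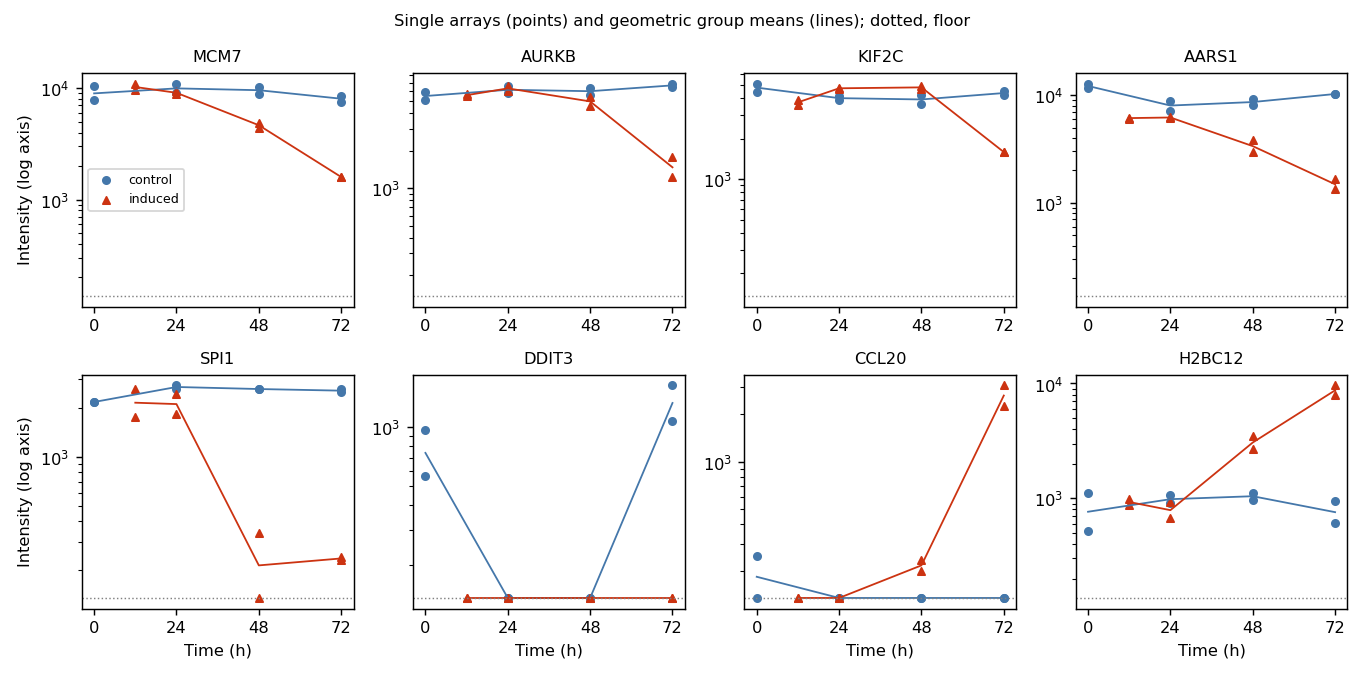
Intensity (log axis) of single arrays for 8 genes over 72 h, blue circles for controls at 0, 24, 48 and 72 h and red triangles for induced cells at 12, 24, 48 and 72 h. Lines join geometric group means and the dotted line is the floor. SPI1 was low by 48 h, AURKB and KIF2C fell between 48 and 72 h, CCL20 rose mainly after 48 h, and DDIT3 differed at 72 h with its controls risen from the floor.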

How the data were processed

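The deposited values are intensities on a linear scale, 1 per probe set and array, which the authors had scaled to 1 mean on every array; some are below 0 (25.8% of all). How they were summarised from single probes is not given in the sources read here. Per the labels, the target was made from 10 ug of total RNA. Here values under the 40th percentile (135.61) were set to it and log2 was taken. Probe sets above 292.74 on at least 2 of 16 arrays were tested, and 67 Affymetrix controls were left out. A probe set could pass this filter through the induced arrays alone, which favours calls toward higher values. limma 3.58.1 in R 4.3.3 was fitted to all 16 arrays in 8 groups with a mean-variance trend, and p-values were adjusted by Benjamini-Hochberg over the 7824 probe sets. Calls are those with an adjusted p under 0.05. The fit was also run on simulated data in which far fewer probe sets changed than were called here. That run thus does not bear on the counts given above. A gene was read by its brightest probe set with 1 symbol. Folds against arrays at the floor are lower bounds. Named genes were the largest called rises and falls without overlap, in classes by the floor, and members of the lists. Members and lists were chosen with earlier results of these data known. Promoters came from RefSeq (GRCh38.p14). Alternatives covered floor, filter, scaling, the variance model, the controls, the replicate block and each array left out. The number of arrays limits the precision.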

Additional observations from a re-analysis of the deposited data

Results flagged for a closer look

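The effect of induction differed between 72 h and 48 h, by the test of that difference (limma, adjusted p under 0.05), in 7 probe sets toward higher and 31 toward lower values. All values here are log2 differences of the 72 h effect minus the 48 h effect for the 28 genes among them. In DNA replication they were -3.72 for POLD1, -2.56 for RNASEH2A, -1.96 for CDT1, -1.91 for GINS1, -1.57 for FEN1 and -1.29 for MCM7. In mitosis they were -1.91 for AURKB, -1.75 for KIF2C, -1.66 for FOXM1, -1.45 for CCNB2, -1.32 for CDC20, -1.31 for MYBL2 and -1.22 for PLK1. Nucleotide synthesis gave -1.33 for PRPS2 and -0.96 for TYMS, and the amino acid list -3.29 for DDIT3 and -1.43 for AARS1. The value of DDIT3 came with a rise of its controls. CORO1A, an actin regulator of leukocytes, gave -2.0, and the calcium-binding protein gene S100A11 -1.70. Genes on no list gave -2.03 (APOBEC3B), -1.94 (TMC6), -1.76 (CDK14), -1.51 (NDC80), -1.17 (EXOSC8) and -1.16 (PCLAF). Toward higher values there were CCL20 with 3.59, LGALS3BP, a secreted glycoprotein, with 3.58 and the lysosomal gene CTSA with 1.64. Some values in both directions were set in part by the floor. Under it lay both induced 72 h arrays of POLD1 and the control arrays of CCL20 at 48 and 72 h. For DDIT3 and LGALS3BP all arrays at 48 h lay under it, so no 48 h effect could be read. LGALS3BP read 2949 and 897 in the induced arrays at 72 h. The controls of CTSA fell between 48 and 72 h, from a mean of 1847 to 1091, while its induced mean rose from 2439.5 to 4409. Control means rose from 48 to 72 h for APOBEC3B (1506 to 1841), CDT1 (3722 to 6531), POLD1 (3083 to 4917) and RNASEH2A (1525 to 2063). The induced means of CDT1 and POLD1 fell between those times, from 1919 to 881 and from 1118.5 to -461.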

How the results depend on the processing

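RUNX1T1 stayed called under all 17 alternatives. Of the named genes called at 72 h, 178 kept the call under every alternative, 90 lost it under at least 1 and 0 turned sign. The 1258 higher calls became 698 after median centring, and leaving out 1 array gave 730 to 1021 higher and 835 to 965 lower. The other alternatives moved neither count by over 1.5 times. The difference between 72 and 48 h, 7 higher and 31 lower, depended on most choices. It gave 3 higher with the floor at the 30th percentile, 50 and 70 (higher and lower) with the floor at the 50th, 2 higher with a generalised log2, and 43 and 44 with no filter. It gave 13 and 72 after quantile normalization, 1 and 2 after median centring, 20 and 13 without the variance trend, and 1 and 3 with only the arrays of the times compared. Leaving out 1 array gave 0 to 8 higher and 3 to 69 lower. The cause was not tested. Same-numbered arrays did not deviate together (r = -0.119 at 72 h, from -0.152 to 0.25 over 28 pairs of groups), so the numbers were not taken as pairs. With the replicate block there were 1308 higher and 1117 lower calls at 72 h, 7 higher and 26 lower in the difference, and 6.12 for RUNX1T1. With the numbers of the 72 h controls crossed, an alternative chosen after seeing the data, the counts were 1255 and 1102. Of 952 list counts, 135 moved by over 1.5 times. With 2 arrays a group, the number of arrays limits what small differences can show.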
